A study of Papio anubis with 588 samples.

Results

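The 7 genes described here, S100A8, S100A9, S100A12, CXCL8, CXCR2, FPR1 and MNDA, are known from neutrophils and were taken by symbol from a count table of 34178 genes, which held all 7. The table comes from biopsies of liver, adipose tissue and muscle of 99 captive olive baboons (Papio anubis), each sampled before and after a change of diet. The groups were animals after 2 years on a diet high in cholesterol and fat (HCHF) and the same animals at 0 years on a diet low in both (LCLF), with 87 HCHF and 95 LCLF libraries of liver, 95 and 99 of adipose tissue, and 98 and 96 of muscle. Both diets were sampled in 84 animals for liver and in 95 each for adipose tissue and muscle. The HCHF samples were also taken 2 years later in life than the LCLF samples, so diet and age cannot be told apart. The median depth was 19.5 M counts (M, 1000000), in a range of 6.51 to 38.46 M, and the 93 libraries of batch 1 (median 10.95 M) were shallower than the 477 of batch 2 (20.1 M). Levels are counts per 1000000 counts of a library (CPM). The labels describe 2 sequencing batches of animals, 16 with unstranded single-end and 83 with stranded paired-end libraries, and the batch of each animal was read here from the main axis of the data, where 2 groups of that size stood apart.

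Neutrophils are short-lived white blood cells that leave the blood for sites of infection or injury. S100A8 and S100A9 form calprotectin, the main protein of the neutrophil cytosol, which binds calcium and metal ions and acts outside the cell as an alarm signal through TLR4. S100A12 is a related alarm protein. CXCL8 (interleukin-8) is the chemokine that draws neutrophils, CXCR2 is one of its receptors, and FPR1 is the receptor for formylated peptides of bacteria and mitochondria. MNDA is a nuclear protein of human granulocytes and monocytes. Monocytes and some macrophages also make S100A8, S100A9 and FPR1, and CXCL8 can come from many cell types, so none of these genes marks neutrophils alone in a whole biopsy. In the RefSeq annotation of assembly Panubis1.0, S100A9, S100A12 and S100A8 are neighbours, with a pseudogene between S100A12 and S100A8. No source used here gives the use of strand or the treatment of reads that match several places, so values of CXCR2 and FPR1, which have close relatives in the genome, are uncertain where reads match both.

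The markers of each tissue were high in its own libraries. The summed level of 7 hepatocyte markers had medians of 187413 CPM on HCHF and 194155 CPM on LCLF in liver, that of 6 adipocyte markers 8240 and 8122 CPM in adipose tissue, and that of 6 myocyte markers 149247 and 153171 CPM in muscle. Libraries of 4 animals in liver and 3 in adipose tissue were low in their own markers or high in those of another tissue. Without those animals the calls of the 4 tested genes in liver and the 5 in adipose tissue stayed on their side of the threshold. After the filter on low counts, 4 of the 7 genes could be tested in liver (S100A8, S100A9, CXCR2, FPR1), 5 in adipose tissue (these and CXCL8) and 2 in muscle (S100A8, S100A9). MNDA was at or near 0 everywhere. It had 2 reads on HCHF and 0 on LCLF in liver, 12 and 17 in adipose tissue, and 0 on both diets in muscle. A count of 0 over the 1823.51 M HCHF counts of muscle allows a level of up to 0.00165 CPM, for counting error only.

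**Figure D1:**
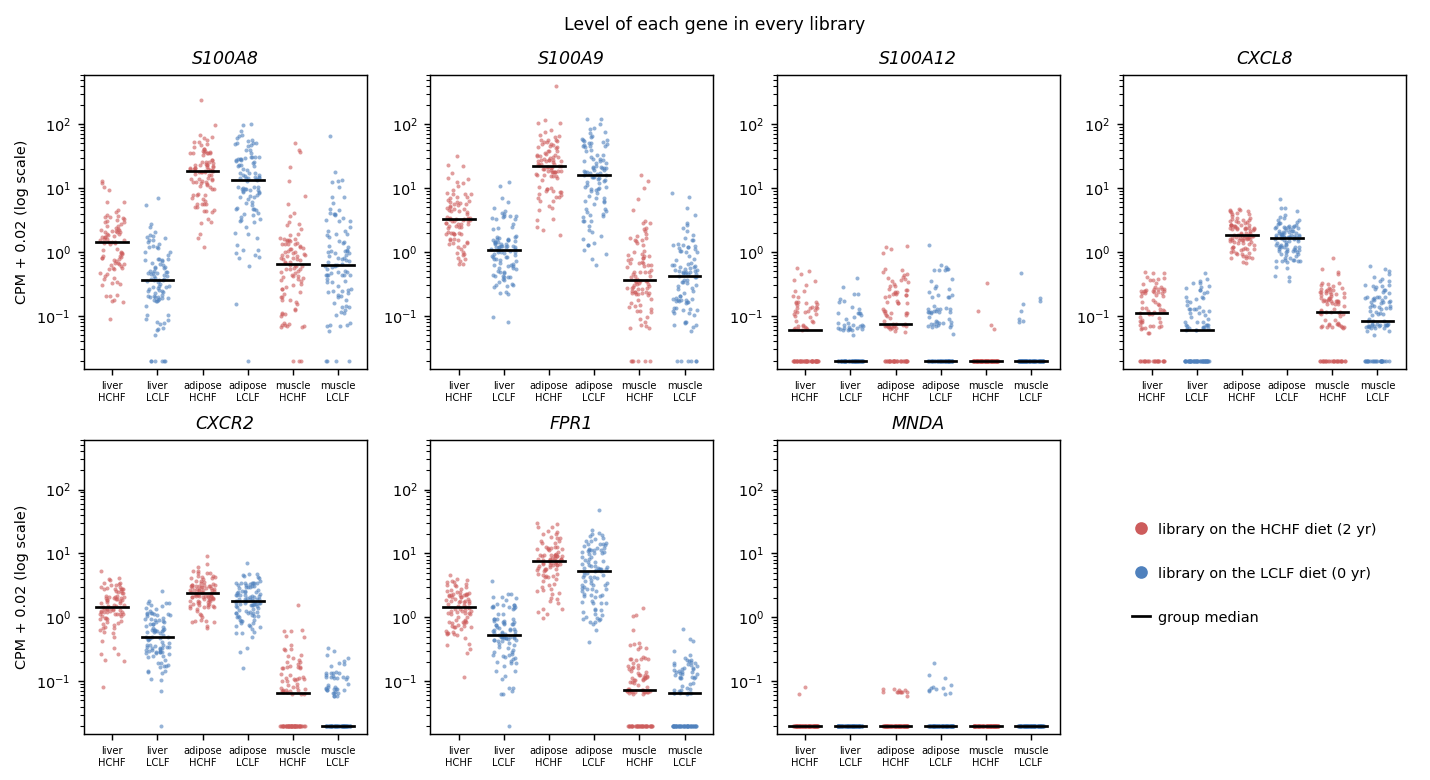
Level of the 7 genes in each of the 570 libraries, in CPM plus 0.02 on a log axis, with red points for HCHF, blue points for LCLF and a black line at the median of each group. Adipose tissue has the highest median of S100A8, S100A9, CXCL8, CXCR2 and FPR1 on both diets, the liver groups stand apart by diet while still overlapping, and MNDA lies at 0 in nearly all libraries.

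In liver, the 4 tested genes were all higher on HCHF, by 2.23-fold to 2.91-fold, and in 73 to 76 of the 84 animals. Of all 14919 genes tested in liver, 22.5% were called higher on HCHF and 27.6% lower. In whole biopsies, more cells of a type and more RNA per cell cannot be told apart, here and in the results that follow. The summed level of 9 macrophage markers had a median of 378 CPM on HCHF (114 to 1205 CPM) and 143 CPM on LCLF (30.5 to 576 CPM). That of 5 erythroid markers, which follow the blood in a biopsy, had a median of 84.9 CPM on HCHF (5.75 to 1788 CPM) and 34.6 CPM on LCLF (4.11 to 327 CPM). The part of either in the changes of the 4 genes was not tested.

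S100A8 had a lowest level of 0.0684 CPM, a median of 1.39 CPM and a highest level of 13.0 CPM on HCHF, against 0, 0.35 and 7.06 CPM on LCLF. The groups overlapped, but the lower quartile on HCHF (0.617 CPM) was close to the upper quartile on LCLF (0.72 CPM), and the 6 libraries without a read of S100A8 were all on LCLF. Within animals S100A8 rose by 1.54 ± 0.15 on the log2 scale (SE, edgeR quasi-likelihood test, Benjamini-Hochberg adjusted p = 2.67e-16) and was higher in 76 of 84 animals. S100A9 had a lowest level of 0.619 CPM, a median of 3.23 CPM and a highest level of 31.4 CPM on HCHF, against 0.0612, 1.07 and 12.3 CPM on LCLF. It rose by 1.48 ± 0.14 (adjusted p = 1.28e-15) and was higher in 73 of 84 animals. The partners of calprotectin thus changed by nearly the same amount, with 95% intervals of 1.25 to 1.83 for S100A8 and 1.21 to 1.75 for S100A9.

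The receptors were next. CXCR2 ranged from 0.0612 to 5.26 CPM on HCHF with a median of 1.41 CPM, against 0 to 2.58 CPM with a median of 0.475 CPM on LCLF. It rose by 1.29 ± 0.13 on the log2 scale (edgeR adjusted p = 1.07e-14) and was higher in 74 of 84 animals. FPR1 ranged from 0.0976 to 4.64 CPM on HCHF with a median of 1.44 CPM, against 0 to 3.74 CPM with a median of 0.501 CPM on LCLF. It rose by 1.15 ± 0.12 (adjusted p = 8.94e-15) and was higher in 76 of 84 animals. Of the 8 animals without that direction in FPR1, the largest fall was 2.67 on the log2 scale of CPM. In batch 1 alone, with 13 animals, the changes were 1.32 for S100A9, 1.33 for CXCR2 and 0.86 for FPR1, all called by edgeR, while S100A8 with 0.88 was not (adjusted p = 0.0708). In batch 2 alone the 4 genes rose by 1.67, 1.52, 1.29 and 1.22 in the order S100A8, S100A9, CXCR2, FPR1.

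The other 3 genes were too low in liver for the filter. CXCL8, the chemokine itself, had 232 reads over the HCHF libraries and 114 over the LCLF libraries, and at least 1 read in 64 of 87 and in 48 of 95 libraries. S100A12 had 124 reads on HCHF and 62 on LCLF, with at least 1 read in 44 of 87 and in 35 of 95 libraries. Without the filter, edgeR called CXCL8 higher on HCHF (0.81 ± 0.25, adjusted p = 0.00709) and S100A12 as well (0.82 ± 0.33, adjusted p = 0.0473), where 14.6% of 29187 genes were called higher. Most libraries held 0 to a few reads of either gene, so these calls rest on small counts. Without the 2 animals that had outlying libraries, an alternative added after seeing the data, S100A12 was not called (0.77, edgeR adjusted p = 0.0952) and CXCL8 was (0.81, adjusted p = 0.00947).

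**Figure D2:**
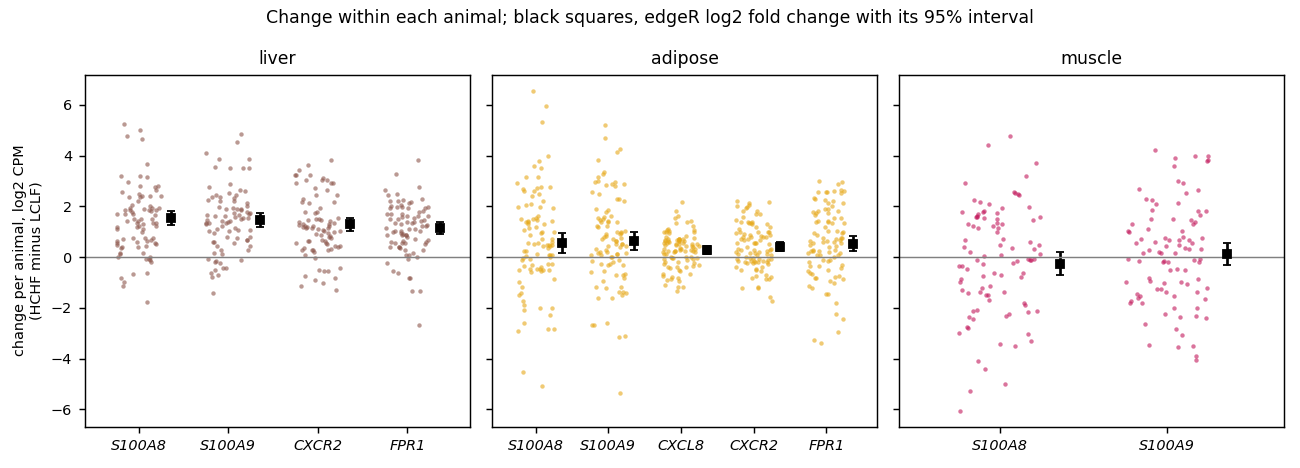
Change of each tested gene within each animal, HCHF minus LCLF in log2 CPM, with 1 coloured point per animal and a black square for the edgeR log2 fold change with its 95% interval. In liver the intervals of all 4 genes lie above 0, in adipose tissue those of all 5 genes lie above 0 but nearer to it, and in muscle those of S100A8 and S100A9 include 0.

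Other genes of neutrophils and their neighbours were read from lists. Of 8 other neutrophil genes tested in liver, 7 were called higher and 0 lower, with a median change of 0.88 against -0.03 over all genes. Among them CSF3R, the receptor of granulocyte colony-stimulating factor, rose by 1.46 ± 0.13 and TREM1, a receptor that amplifies inflammatory signals, by 0.83 ± 0.12. The granule genes did not move as a block, with 2 of 4 called higher: LTF (lactoferrin) rose by 0.54 ± 0.07 and MMP9 (gelatinase B), named for its value, by 1.71 ± 0.13, while BPI (-0.11) and LCN2 (-0.14) were not called. All 4 tested subunits and partners of the phagocyte NADPH oxidase rose, among them NCF1 by 0.80 and NCF4 by 0.85.

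Markers of other leukocytes and of red cells also rose in liver, while those of hepatocytes fell. All 9 macrophage markers were called higher with a median change of 1.35, among them CD68 (1.48), CD163 (1.12) and MARCO (1.27). Of 5 monocyte markers 4 rose, among them FCN1 (1.41), VCAN (0.75) and LYZ (1.43), and all 8 T and NK cell markers rose with a median of 0.79, as did 3 of 4 B cell markers. The 2 tested erythroid markers, HBB and ALAS2, rose by 1.30 ± 0.19 and 0.92 ± 0.14. Of 7 hepatocyte markers 6 were called lower with a median of -0.20, among them CPS1 (-0.51) and ALB (-0.21). The lists of keratinocytes, adipocytes, myocytes and mesothelium had 0 genes called higher and 1 called lower each. Of the receptors of calprotectin, TLR4 rose by 0.85 and its partner LY96 by 1.00, while CD14 was not called (-0.07) and BSG (basigin) fell by 0.14. Of 7 acute inflammatory genes 6 rose, among them IL1B (0.91) and ICAM1 (0.74), while NFKBIA (0.09) was not called. The immediate early genes, which respond within minutes to handling of tissue, had 0 of 8 called in liver by edgeR and 0 by DESeq2. At an unadjusted edgeR p under 0.05 there were also 0, and FOS changed by -0.0049, FOSB by 0.03 and JUNB by 0.19. In adipose tissue 1 of 8 was called by edgeR and 5 by DESeq2 without the animal block, and in muscle 1 by each. The edgeR call was IER3 in both, higher on HCHF by 0.29 and 0.40.

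**Figure D3:**
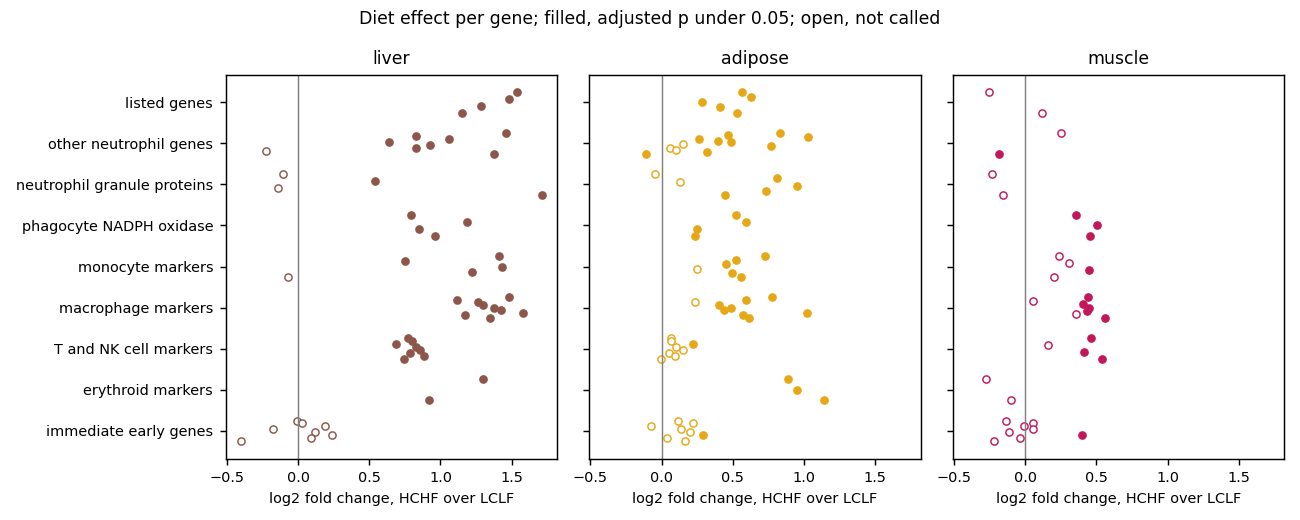
Log2 fold change, HCHF over LCLF, of every tested gene of 9 lists in liver, adipose tissue and muscle, with filled points for genes called by edgeR and open points for genes not called. In liver the neutrophil, monocyte, macrophage and T and NK cell lists all lie mostly right of 0, while the immediate early genes scatter around it.

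In adipose tissue the same genes stood at higher levels, and the 4 genes tested in both tissues changed less than in liver. All 5 tested genes were called higher on HCHF, by 1.22-fold to 1.54-fold, in 61 to 65 of 95 animals, where 19% of all 16827 genes were called higher and 20.2% lower. S100A8 had a lowest level of 1.18 CPM, a median of 18.3 CPM and a highest level of 237 CPM on HCHF, against 0, 13.5 and 100 CPM on LCLF. S100A9 had 1.81, 22.2 and 396 CPM on HCHF, against 0.602, 16.0 and 122 CPM on LCLF. The groups overlapped over nearly their whole range. S100A8 rose by 0.56 ± 0.20 on the log2 scale (edgeR adjusted p = 0.0167) and was higher in 61 of 95 animals, and S100A9 rose by 0.63 ± 0.18 (adjusted p = 0.00436) and was higher in 64. Single animals changed from -5.08 to 6.57 in S100A8 and from -5.35 to 5.22 in S100A9 on the log2 scale of CPM.

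CXCL8 was measured well only in adipose tissue. It ranged from 0.653 to 4.72 CPM on HCHF with a median of 1.80 CPM, against 0.337 to 6.84 CPM with a median of 1.64 CPM on LCLF. It rose by 0.28 ± 0.07 (edgeR adjusted p = 0.00129) and was higher in 63 of 95 animals. CXCR2 ranged from 0.651 to 9.14 CPM on HCHF with a median of 2.36 CPM, against 0.142 to 7.14 CPM with a median of 1.76 CPM on LCLF. It rose by 0.41 ± 0.09 (adjusted p = 0.000239) and was higher in 61 animals. FPR1 ranged from 0.955 to 29.8 CPM on HCHF with a median of 7.63 CPM, against 0.385 to 48.4 CPM with a median of 5.34 CPM on LCLF. It rose by 0.53 ± 0.14 (adjusted p = 0.00211) and was higher in 65 animals.

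The calls in adipose tissue depended on the pairing within animals. Without the animal block, CXCR2 alone of the 5 genes passed (0.37, edgeR adjusted p = 0.00951), and S100A8 with 0.28 (adjusted p = 0.341), S100A9 with 0.40 (0.148), CXCL8 with 0.25 (0.0663) and FPR1 with 0.31 (0.168) did not. S100A8 was also lost with limma-voom (0.33, adjusted p = 0.125) and with the left-out libraries put back (0.49, adjusted p = 0.0526). Among those put back were the HCHF libraries of animals 16017 and 17916, with the marker levels of liver. Their hepatocyte markers summed to 185531 and 180414 CPM, against a median of 109 CPM in the HCHF adipose libraries that passed. In batch 1 alone, with 16 animals, none of the 5 genes passed: S100A8 changed by 0.32, S100A9 by 0.14, CXCL8 by -0.05, CXCR2 by 0.12 and FPR1 by 0.24. In batch 2 alone all 5 passed, with 0.60, 0.70, 0.33, 0.46 and 0.57 in that order.

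S100A12 had 301 reads on HCHF and 191 on LCLF in adipose tissue, with at least 1 read in 65 of 95 and in 49 of 99 libraries. Without the filter edgeR called it higher (0.64 ± 0.22, adjusted p = 0.0217), where 10.7% of 30598 genes were called higher. Of 12 other neutrophil genes, 8 were called higher and 1 lower, with a median of 0.36 against -0.0048 over all genes. CSF3R rose by 0.83 ± 0.15, FFAR2, a receptor of short-chain fatty acids, by 0.47 ± 0.12 and TREM1 by 1.03 ± 0.16, and the gene that fell was STEAP4 (-0.11 ± 0.04), a metalloreductase that fat cells also make. Of 6 granule genes 4 rose, among them CAMP (cathelicidin) by 0.81 ± 0.13, while LTF (-0.05) and LCN2 (0.13) were not called, and all 4 NADPH oxidase genes rose, among them NCF1 by 0.52 and NCF4 by 0.25.

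Markers of macrophages, monocytes, red cells, mast cells with basophils, and mesothelium rose in adipose tissue as well. Of 9 macrophage markers 8 were called higher, among them CD68 (0.78) and CD163 (0.59), while MARCO (0.23) was not, and their summed level had a median of 988 CPM on HCHF (210 to 2734 CPM) and 726 CPM on LCLF (70.3 to 2859 CPM). The 3 tested erythroid markers HBB, ALAS2 and SLC4A1 rose by 0.89, 0.95 and 1.14, and the sum of 5 had a median of 1600 CPM on HCHF (125 to 30554 CPM) and 844 CPM on LCLF (97.2 to 7352 CPM). Of 6 monocyte markers 5 were called higher with a median of 0.51. Of the list of eosinophils, basophils and mast cells only CPA3 and MS4A2, genes of mast cells and basophils, were tested. CPA3 rose by 0.66 and MS4A2 by 0.83. All 5 mesothelium markers rose with a median of 0.54, against 0.53 for the 5 genes. Of 8 T and NK cell markers 1 was called higher. Of the ligands of CXCR2 other than CXCL8, PPBP, a platelet chemokine, rose by 0.53 ± 0.18 and CXCL1 was not called (0.04). The part of these cells in the changes of the 5 genes was not tested.

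In muscle S100A8 and S100A9 were low in most animals and high in a few, and neither passed the test. S100A8 had a lowest level of 0, a median of 0.632 CPM and a highest level of 51.2 CPM on HCHF, against 0, 0.606 and 66.1 CPM on LCLF. S100A9 had 0, 0.344 and 16.1 CPM on HCHF, against 0, 0.395 and 8.31 CPM on LCLF. The groups overlapped over almost their whole range. The log2 fold change was -0.26 ± 0.23 for S100A8 (edgeR adjusted p = 0.475, higher in 45 of 95 animals) and 0.12 ± 0.22 for S100A9 (adjusted p = 0.759, higher in 52), where 7.39% of all 13621 genes were called higher and 8.24% lower. The 95% intervals, -0.71 to 0.19 for S100A8 and -0.31 to 0.55 for S100A9, do not contain a change as large as in liver. In batch 2 alone S100A8 changed by -0.33 (adjusted p = 0.377), S100A9 did not pass the filter there, and neither did in batch 1. With DESeq2 and no animal block the S100A8 value was 0.23, of the other sign (adjusted p = 0.749). A single library carried 19.9% of all S100A8 reads on HCHF, and another 20.3% of those on LCLF.

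The receptors were too low in muscle for the filter. CXCR2 had 196 reads on HCHF and 81 on LCLF, with at least 1 read in 52 of 98 and in 41 of 96 libraries, and FPR1 had 224 and 118 reads, with at least 1 read in 63 of 98 and in 51 of 96. Without the filter edgeR called CXCR2 higher on HCHF (0.91 ± 0.28, adjusted p = 0.0326) but not FPR1 (0.45 ± 0.24, adjusted p = 0.296), where 3.78% of 28773 genes were called higher. One HCHF library, that of animal 15581, held 39 of the 196 CXCR2 reads and 35 of the 224 FPR1 reads. Without the 2 animals that had outlying libraries, an alternative added after seeing the data, neither was called (CXCR2 0.63, edgeR adjusted p = 0.186, and FPR1 0.18, adjusted p = 0.798). CXCL8 had 226 reads on HCHF and 199 on LCLF (0.08 ± 0.20, adjusted p = 0.889), and S100A12 had 11 and 23.

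Few neutrophil genes were high enough to test in muscle. Of 2 other neutrophil genes, STEAP4 fell by 0.19 ± 0.05 and MMP25, a membrane metalloproteinase of leukocytes, was not called (0.25 ± 0.14), and of the granule genes neither MPO (-0.23) nor LTF (-0.16) was called. The 3 tested NADPH oxidase genes rose, among them NCF4 by 0.50 and RAC2 by 0.46, as did 5 of 7 macrophage markers, among them CD68 (0.44) and C1QA (0.41), while CD163 (0.05) was not called. The erythroid markers HBB (-0.28) and ALAS2 (-0.10) were not called.

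Whether the change on HCHF was of unequal size in the tissues was tested on the same animals, with limma on within-animal changes of log2 CPM. Liver changed more than adipose tissue in S100A8 (by 0.87 ± 0.26, adjusted p = 0.00502, in 57 of 82 animals), S100A9 (0.82 ± 0.22, adjusted p = 0.00195, 51 animals), CXCR2 (0.93 ± 0.17, adjusted p = 5.82e-06, 58 animals) and FPR1 (0.62 ± 0.20, adjusted p = 0.00935, 49 animals). Of 18588 genes, 16.6% had a positive difference that passed. Against muscle, with 80 animals, liver changed more in S100A8 by 1.61 ± 0.30 (adjusted p = 2.12e-05) and in S100A9 by 1.30 ± 0.27 (adjusted p = 9.11e-05), where 13.4% passed in that direction. Between adipose tissue and muscle neither passed, with 0.64 ± 0.33 for S100A8 (adjusted p = 0.231) and 0.42 ± 0.29 for S100A9 (adjusted p = 0.399), where 4.74% of genes had a positive difference that passed. CXCR2 and FPR1 in muscle, and CXCL8 in muscle and liver, were below the filter, and the prior count of 2 used on this scale flattens changes at such levels, so their changes were not compared with those of other tissues.

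On LCLF the level on the log2 scale itself differed between tissues in each of these 5 genes and each of the 3 comparisons (limma, 15 of 15 calls), where 91.9% of genes passed between liver and adipose tissue, 91.3% between liver and muscle and 92.8% between adipose tissue and muscle. Adipose tissue was highest in all 5. CPM across tissues also depends on the composition of the libraries. For S100A8 liver was lowest, 3.28 ± 0.21 below adipose tissue and 0.97 ± 0.27 below muscle on the log2 scale. Liver was still above muscle in 38 of 92 animals. For S100A9 muscle was lowest, with liver higher by 1.25 ± 0.20 and adipose tissue by 3.54 ± 0.24. For the 3 genes below the filter in muscle only the directions are read, since the prior count makes their log2 differences too small. CXCL8 was lowest in liver, with 0.0618 CPM over all liver libraries together, against 0.111 CPM in muscle. CXCR2 and FPR1 were lowest in muscle, where they had 0.0453 and 0.0659 CPM over all libraries together, against 0.623 and 0.686 CPM in liver. The receptor CXCR2 was close in liver and adipose tissue, 0.43 ± 0.13 lower in liver, which was the higher of the pair in 40 of 95 animals. On HCHF the medians of S100A8 were 1.39 CPM in liver, 18.3 CPM in adipose tissue and 0.632 CPM in muscle, an order by medians that was not tested.

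The balance of the calprotectin partners differed by tissue. Gene lengths were not used, so the ratio of S100A8 to S100A9 reads is read only between tissues, in libraries with at least 10 reads of both together. Its median on the log2 scale was -1.29 in liver, -0.40 in adipose tissue and 0.55 in muscle on HCHF, and -1.37, -0.32 and 1.11 on LCLF. S100A8 had the more reads in 44 of 71 muscle libraries on HCHF and 51 of 71 on LCLF, against 17 of 95 and 23 of 98 in adipose tissue and 2 of 87 and 3 of 80 in liver. Within animals the ratio was higher in muscle than in liver by 2.38 on HCHF (62 of 65 animals) and by 2.66 on LCLF (53 of 58). It was higher in muscle than in adipose tissue by 1.21 on HCHF (50 of 69) and 1.42 on LCLF (57 of 70), and higher in adipose tissue than in liver by 1.05 on HCHF (79 of 85) and 1.10 on LCLF (70 of 79). Each of these 6 had a permutation p of 1e-05, the smallest that 100000 sign flips can give (adjusted over 9 tests, 1.5e-05). Within batch 1 the 6 differences were 0.50 to 2.27, and within batch 2 they were all at least 1.02. The diet did not change the ratio past the threshold, with differences of 0.13 in liver (permutation p = 0.356), -0.04 in adipose tissue (0.575) and -0.12 in muscle (0.679).

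**Figure D4:**
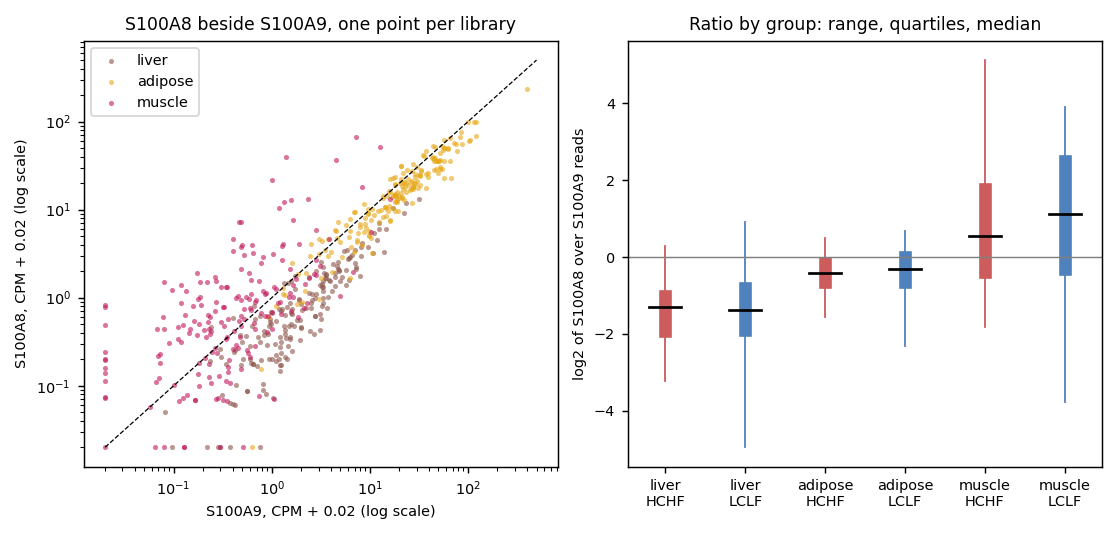
Left, S100A8 against S100A9 in CPM plus 0.02 on log axes, 1 point per library, coloured by tissue, with a dashed line at equal CPM; right, the log2 ratio of S100A8 to S100A9 reads by tissue and diet, with the range as a thin line, the quartiles as a thick bar and the median in black. Liver lies below adipose tissue and adipose tissue below muscle on both diets, and muscle has the widest range.

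Muscle of single animals had many more reads of S100A8 than of S100A9. Animal 16499 had 519 reads of S100A8 and 18 of S100A9 in muscle on HCHF (39.7 and 1.38 CPM), and 66.1 and 7.25 CPM on LCLF. Animal 16879 had 287 and 13 reads on HCHF, and 97 and 6 reads on LCLF. Both animals thus had a high ratio on both diets, 2 years apart. S100A9 itself was not low in animal 16499, where its level on LCLF had rank 2 of its group (group median 0.395 CPM). Animal 17190 had the highest level on HCHF, 51.2 CPM of S100A8 beside 12.7 CPM of S100A9. Markers of keratinocytes were set against S100A8, S100A9 and their ratio after these values were seen. Their summed level in muscle of animal 16499 was the highest of its group on both diets, 69.3 CPM on HCHF and 63.0 CPM on LCLF, against group medians of 16.4 and 16.6 CPM. Nearly all of it was KRT10 (66.4 and 61.6 CPM), while KRT14, DSG3, SFN and KRTDAP were at 0 and KRT5 was at 0.459 and 0 CPM. KRT10 also made up most of the sum in the other muscle libraries highest in S100A8. In animal 16879 on HCHF it was 52.0 of 53.5 CPM. In muscle 7 of the 10 markers had a median of 0 on each diet, so the sum does not stand for the whole list. Over muscle libraries on HCHF the ratio went with this sum (Pearson's r = 0.53, Spearman's rho = 0.44 over 71 libraries). The permutation p was 1e-05 and 8e-05, adjusted over 6 relations 6e-05 and 0.00048. The Pearson correlation was 0.50 without the 2 libraries farthest from the median, 0.16 in the 11 of batch 1 and 0.55 in the 60 of batch 2. On LCLF r was 0.20 (rho = 0.13, adjusted permutation p = 0.143 and 0.41), 0.11 without 2 libraries, 0.18 in batch 1 and 0.20 in batch 2. S100A8 itself went with this sum with r = 0.36 on HCHF (rho = 0.26, adjusted permutation p = 0.00144 and 0.0244, n = 98). That r was 0.29 without 2 libraries, 0.15 in batch 1 and 0.41 in batch 2. On LCLF S100A8 gave 0.27 (rho = 0.15, adjusted permutation p = 0.0165 and 0.296, n = 96), 0.24 without 2 libraries, 0.29 in batch 1 and 0.27 in batch 2. S100A9 gave -0.03 on HCHF and 0.08 on LCLF (adjusted permutation p = 0.738 and 0.56). The part of any cell type in the ratio was not tested.

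Libraries outlying for at least 3 of the 7 genes were few, 4 of 570. They were muscle of animals 15581 and 15279 on HCHF, liver of animal 16338 on HCHF and liver of animal 16708 on LCLF, and 0 were in adipose tissue. Muscle of animal 15581 was high in S100A9 (16.1 CPM), CXCR2 (1.52 CPM), FPR1 (1.37 CPM) and S100A12 (0.313 CPM). Its erythroid markers summed to 812 CPM against a group median of 69.0 CPM, rank 7 of 98. Its macrophage markers summed to 134 CPM (group median 15.8 CPM) and its mesothelium markers to 115 CPM (4.64 CPM), both the highest of the group. Monocyte markers there summed to 82.7 CPM against a group median of 11.3 CPM. Muscle of animal 15279 had 6.77 CPM of S100A9 and 1.02 CPM of FPR1, with 644 CPM of erythroid markers, and its outlying level of S100A12 was 1 read. Liver of animal 16338 had the highest S100A8 and S100A9 of its group, 13.0 and 31.4 CPM, and its outlying level of MNDA was likewise 1 read. Both libraries reach 3 genes only with that read. Liver of animal 16708 had 10.5 and 17.3 CPM of S100A8 and S100A9 on HCHF, and 7.06 and 12.3 CPM on LCLF. Its LCLF library had only 0.433 CPM of CXCR2 and 0.371 CPM of FPR1, below the group medians, and its erythroid markers summed to 7.92 CPM. In liver, animal 17776 held the fourth place of S100A8 on HCHF and the second on LCLF (9.17 and 5.38 CPM). In adipose tissue, animal 12152 on HCHF was the highest in S100A8 and S100A9 (237 and 396 CPM) with 2.36 CPM of CXCR2, equal to the group median, and it is one of the 3 animals in doubt for adipose tissue. Without the outlying animals the 4 tested genes in liver were still called and S100A8 in muscle was still not called (-0.29, edgeR adjusted p = 0.431), while S100A9 in muscle no longer passed the filter. For single genes, 3 HCHF and 6 LCLF libraries were outlying in liver, 14 and 20 in adipose tissue and 13 and 11 in muscle, many of them with 1 read of MNDA or S100A12, where the quartiles are at 0.

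Animals kept part of their rank across the diets. In liver the level on LCLF and that on HCHF correlated for S100A8 with r = 0.50 over 84 animals (rho = 0.47, permutation p = 1e-05 for both, adjusted over 11 relations 5.5e-05 and 3.67e-05), and with 0.41 without the 2 animals farthest from the median, 0.72 in batch 1 and 0.46 in batch 2. S100A9 gave 0.47 (rho = 0.39), FPR1 0.42 (rho = 0.45) and CXCR2 0.23 (rho = 0.21, adjusted permutation p = 0.0411 and 0.063). CXCR2 passed in neither batch alone, with 0.13 in batch 1 and 0.23 in batch 2 (permutation p = 0.675 and 0.0586 before adjustment). In adipose tissue CXCL8 kept its rank with r = 0.50 over 95 animals (rho = 0.50, adjusted permutation p = 5.5e-05 and 3.67e-05), 0.50 without 2 animals, 0.51 in batch 1 and 0.49 in batch 2. The others in adipose tissue gave 0.26 for S100A8, 0.32 for S100A9, 0.39 for CXCR2 and 0.34 for FPR1, each with an adjusted permutation p of 0.0138 or less. In the same order they gave 0.36, 0.40, 0.11 and 0.24 in the 16 animals of batch 1. None passed there (permutation p of 0.12 or more before adjustment). In batch 2 they gave 0.24, 0.32, 0.44 and 0.35 (permutation p of 0.0297 or less before adjustment). In muscle S100A8 gave 0.29 (rho = 0.22, adjusted permutation p = 0.00616 and 0.0401), 0.22 without 2 animals and 0.40 in batch 2 but -0.14 in the 16 animals of batch 1, so it did not hold in both batches. S100A9 in muscle gave 0.07 (rho = 0.06, permutation p = 0.518 and 0.546).

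**Figure D5:**
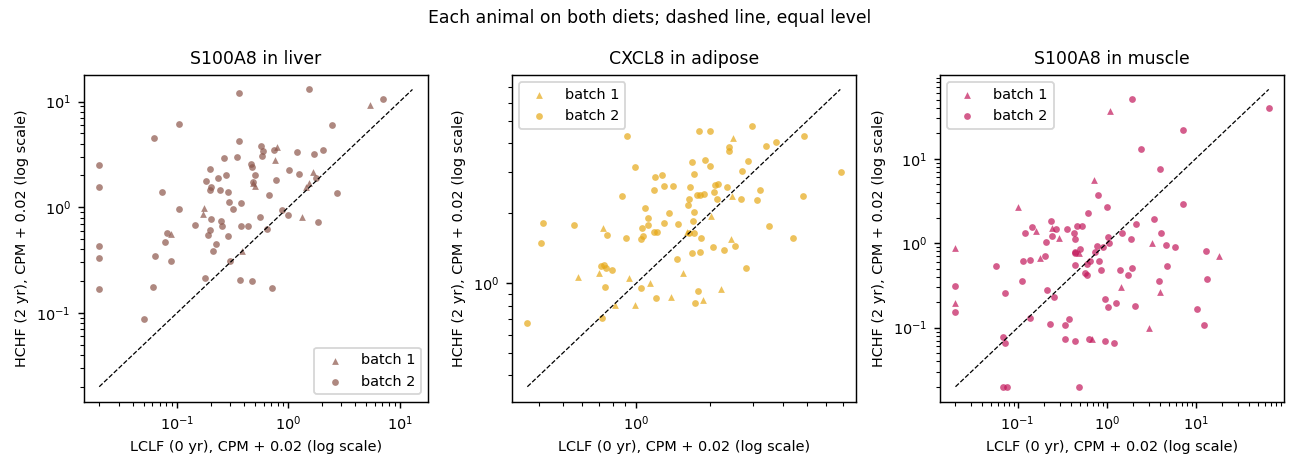
Level of S100A8 in liver, CXCL8 in adipose tissue and S100A8 in muscle on HCHF against that on LCLF in the same animal, in CPM plus 0.02 on log axes, with triangles for batch 1, circles for batch 2 and a dashed line at equal level. The liver points lie mostly above the line, and in muscle animal 16499 stands at the far right and high, with 39.7 CPM on HCHF and 66.1 CPM on LCLF.

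Between tissues of an animal these genes went together little. Of 16 correlations on a single diet, 2 passed adjustment: FPR1 between liver and adipose tissue on HCHF (r = 0.32, rho = 0.33 over 85 animals, adjusted permutation p = 0.0226 and 0.0256) and S100A9 between liver and adipose tissue on LCLF (r = 0.32, rho = 0.30 over 95 animals). Between liver and muscle the 4 values of r for S100A8 and S100A9 were -0.13 to 0.03, and between adipose tissue and muscle -0.19 to 0.19. An animal with much S100A8 in 1 tissue was thus not shown to have much in the others.

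The genes most like each of the 7 differed by gene and tissue, by the correlation of deviations from the mean of a tissue, diet and batch, over 182 liver, 194 adipose and 194 muscle libraries. These correlations share library and depth and are given as a description. In liver S100A8 was most like S100A9 (0.86) and BTDA and BTDB (0.69 and 0.68), which code for theta-defensins, ring-shaped peptides of Old World monkey leukocytes. S100A9 was most like S100A8, CSF3R (0.71) and TNFRSF10C (0.70), a decoy receptor of TRAIL found on human neutrophils. The receptors had other neighbours. CXCR2 was most like CD68, VSIG4 and CD209 (0.72, 0.72 and 0.71) and FPR1 most like C3AR1, VSIG4 and CD4 (0.61, 0.60 and 0.59), of which CD68, VSIG4 and CD209 are known from macrophages. S100A8 and S100A9 themselves had only 0.36 with CXCR2 and 0.36 and 0.38 with FPR1. In liver the nearest neighbours of S100A8 and S100A9 were thus each other and genes known from neutrophils or other leukocytes. Those of CXCR2 and FPR1 included genes of macrophages.

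In adipose tissue S100A8 and S100A9 were almost 1 measure (0.95), but their next neighbours were TIMD4 and VSIG4 (0.78 and 0.77) for S100A8 and ALOX5AP and ALOX5 (0.74 and 0.73) for S100A9. TIMD4 and VSIG4 are receptors of resident macrophages, and ALOX5 and its partner ALOX5AP make leukotrienes in several kinds of myeloid cell. FPR1 was most like ALOX5AP (0.82), C3AR1 (0.79) and VSIG4 (0.78), and CXCR2 most like GRB2, ADA2 and MFSD1 (0.66, 0.62 and 0.58). CXCL8 stood apart, most like TIMP1, IGFBP2 and RAB38 (0.53, 0.52 and 0.52), with 0.46 to S100A8 and 0.01 to its receptor CXCR2. In muscle S100A8 and S100A9 had only 0.64 with each other, and next came MYC (0.52) and OSBPL3 (0.51) for S100A8, and CEBPD (0.42) and MYC (0.41) for S100A9. The nearest neighbours thus included genes known from neutrophils or other leukocytes for S100A8 and S100A9 in liver. They included genes known from macrophages for CXCR2 and FPR1 there, and for S100A8 and FPR1 in adipose tissue. Which cells the reads of these genes came from was not tested.

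The changes of these genes within animals were also set against those of CSF3R, CD68 and HBB. In liver the change of S100A9 correlated with that of CSF3R with r = 0.60 (rho = 0.62, adjusted permutation p = 1.94e-05 and 2.2e-05 over 33 relations) and with that of CD68 with 0.42, and the change of CXCR2 with that of CD68 with 0.61 and of CSF3R with 0.52. The first was 0.58 without 2 animals, 0.62 in batch 1 and 0.61 in batch 2, and the change of CXCR2 with that of CD68 was 0.60, 0.66 and 0.63. With HBB, the blood marker, the changes in liver gave 0.27 for S100A8 (rho = 0.24, adjusted permutation p = 0.0202 and 0.0362), 0.18 for S100A9, 0.21 for CXCR2 and -0.01 for FPR1. In adipose tissue the change of FPR1 went with that of CD68 with r = 0.78 (rho = 0.81) and that of S100A8 with 0.70 (rho = 0.71). With the change of CSF3R the values were 0.66 for FPR1 and 0.62 for S100A8. S100A9 gave 0.70 with CD68 and 0.68 with CSF3R, CXCR2 gave 0.49 and 0.52, and CXCL8 0.37 and 0.35. With that of HBB the 5 genes gave -0.01 to 0.20, of which CXCR2 passed by rank only (rho = 0.27, adjusted permutation p = 0.012, against r = 0.20 and 0.0678). In muscle CSF3R was below the filter, where the prior count flattens changes, so its values there are uncertain. The change of S100A9 in muscle went with those of CSF3R (0.58) and HBB (0.53, rho = 0.50, adjusted permutation p = 1.94e-05 and 4.13e-05). That with HBB was 0.51 without 2 animals, 0.59 in batch 1 and 0.52 in batch 2. The change of S100A8 in muscle gave 0.34 with CD68 (rho = 0.31, adjusted permutation p = 0.00143 and 0.0046) and 0.29 with CSF3R. With HBB it gave 0.20 and passed by rank only (rho = 0.24, adjusted permutation p = 0.0308, against 0.0649 for r). S100A9 gave 0.20 with CD68 (rho = 0.18, adjusted permutation p = 0.0649 and 0.0952). These changes come from the same libraries, and the part of blood, macrophages or neutrophils in them was not tested.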

How the data were processed

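RNA was sequenced from frozen biopsies of liver, adipose tissue and muscle. Per the labels' protocols, 16 animals of batch 1 were sequenced single-end after an unstranded kit and 83 animals of batch 2 paired-end after a stranded kit, and all libraries of an animal shared their batches. Per the submitters' processing notes the tools were FastQC, featureCounts and STAR 2.7.7a. Settings, genome build, annotation and use of strand were not stated in any source used here. The values the authors deposited are raw whole-number counts of each gene, for 588 libraries and for the 570 that passed quality control. The 570 columns of the larger table that repeat the smaller one were not used. The 18 libraries left out by the authors entered an alternative and the closing section.

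The labels do not say which animals formed each batch. On the main axis of expression averaged per animal, with 22.5% of the variance, 16 animals lay apart from the other 83. The gap was 52.6, against 6.92 for the next, and these sets were taken as batches 1 and 2. Of 34178 gene names, 33824 matched a RefSeq symbol of assembly Panubis1.0, which was used for names and neighbours only.

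Levels are counts per 1000000 counts of a library (CPM). In each tissue, libraries of animals sampled on both diets were scaled by TMM and filtered by filterByExpr (minimum count 10). The diet was tested by edgeR 4.0.16 (quasi-likelihood, 1 common dispersion, animal as block) with Benjamini-Hochberg adjustment over all genes at 0.05. The F statistic and the fold change together gave the SE. Differences between tissues were tested by limma 3.58.1 with a trend on log2 CPM (prior count 2). DESeq2 1.42.0 and limma-voom were alternatives. Correlations and single means were tested by two-sided permutation with 100000 resamples. R was 4.3.3. The edgeR and limma steps were tested on simulated data.

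The pairing comes from the animal numbers in the labels. The 2 libraries of an animal in a tissue deviated together from their group means, with a median correlation of 0.512 (liver), 0.503 (adipose tissue) and 0.484 (muscle), against -0.0128, -0.00796 and 0.00263 between different animals, and 0 pairs of libraries were identical.

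The 7 genes, the lists and the tests were chosen with earlier results of these data known. The text names the 7 genes whatever their result, the first 3 tested genes of each list, and for each tested gene the 3 genes whose deviations were most like its own. Some genes that this rule names are not reported here. Genes named beyond this rule were chosen after their values were seen, as were the tests of the S100A8 to S100A9 ratio and of keratinocyte markers. Alternatives were other scaling, filters, dispersions and tools, no animal block, each batch alone, left-out libraries put back, and animals with outlying or doubtful libraries left out. A library was outlying for a gene above the upper quartile plus 1.5 interquartile ranges of its group on the log2 scale.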

Additional observations from a re-analysis of the deposited data

Results flagged for a closer look

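The diet effect differed between tissues in 6 comparisons of genes that passed the filter in both tissues, each by limma's test of the difference itself. S100A8 changed more in liver than in adipose tissue by 0.87 and than in muscle by 1.61 on the log2 scale. For S100A9 the differences were 0.82 and 1.30. CXCR2 and FPR1 changed more in liver than in adipose tissue by 0.93 and 0.62. Of all genes, 16.6% passed with a positive difference between liver and adipose tissue and 13.4% between liver and muscle.

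The 18 libraries that the authors left out at quality control held some levels above the highest LCLF library that passed. Of 13 left-out liver libraries, 8 exceeded the highest LCLF level of CXCL8, 0.455 CPM, and the highest, of animal 14948 on HCHF, had 1.37 CPM. In these 8 libraries hepatocyte markers summed to 5.46 to 8618 CPM, with 143 CPM in that of animal 14948, against a median of 191570 CPM in the liver libraries that passed. One of the 13, of animal 17916 on HCHF, had 8.88 CPM of FPR1 against a highest LCLF level of 3.74 CPM, with hepatocyte markers summing to 88.7 CPM and adipocyte markers to 3099 CPM. Of 2 left-out muscle libraries, that of animal 15545 on LCLF had 12.5 CPM of S100A9, 3.42 CPM of CXCL8, 2.01 CPM of CXCR2 and 6.04 CPM of FPR1, against highest LCLF levels of 8.31, 0.594, 0.312 and 0.648 CPM. Its adipocyte markers summed to 5335 CPM and its myocyte markers to 328 CPM.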

How the results depend on the processing

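Without the animal block, edgeR called 2325 genes lower in liver, 1960 higher and 1918 lower in adipose tissue, and 504 higher and 164 lower in muscle. DESeq2 without the block called 2281 lower in liver, 1995 higher and 1857 lower in adipose tissue, and 411 higher and 132 lower in muscle. Apart from the 4 calls lost in adipose tissue, the block changed no call of the tested genes among the 7. Batch 1 alone gave 678 higher and 284 lower in liver, 10 and 2 in muscle, and 0 and 0 in adipose tissue, where edgeR found 1481 of 15601 genes at an unadjusted p under 0.05. It has fewer animals. Batch 2 alone gave 601 higher and 629 lower in muscle, and 581 genes with a positive difference of the diet effect between adipose tissue and muscle. With RLE size factors, 2866 genes had a positive and 2047 a negative difference between liver and muscle, against 2498 and 3164 with TMM. At 3 interquartile ranges, 0 libraries were outlying for at least 3 genes, against 4.

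In batch 1 the sign turned for CXCL8 in adipose tissue (-0.054), for the rank of S100A8 in muscle across the diets (r = -0.14) and for S100A9 between liver and muscle on HCHF (r = -0.60, permutation p = 0.0225 before adjustment). The cause was not tested. No animal was left out as outlying in adipose tissue or as in doubt in muscle, and neither S100A8 nor S100A9 passed the filter in muscle of batch 1, nor S100A9 in batch 2. Depth limits S100A12 and MNDA in all tissues, CXCL8 outside adipose tissue, and CXCR2 and FPR1 in muscle.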
